A study of Octopus bimaculoides with 6 samples.

Results

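The extended set of histone methyltransferases of *O. bimaculoides*, the California two-spot octopus, was examined without its large SETMAR family. Its members were all transcripts that the study listed as extended histone methyltransferases, apart from those with a SETMAR name and those also listed among the main histone methylation factors. This left 35 of the 38556 annotated coding transcripts, which fell under 20 gene IDs and carried 14 human gene names. A number after a point, as in KMT2C.1, marks a further octopus transcript given the same human name, which may be a second form of one gene or a separate gene model. The members with KMT2A, KMT2C, ASH2L and KMT2E names were counted as H3K4 factors, those with NSD1, NSD2 and ASH1L names as H3K36 factors, and those with SETD3 and PRDM9 names as listed for both marks. DOT1L names stood for H3K79, EHMT1 and EHMT2 names for H3K9, and KMT5A and KMT5B names for H4K20.

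The data were 6 RNA libraries, 1 per condition. From an adult male, 3 transverse sections of the first left arm were taken with all their tissues, the distal section at 1.5 cm, the medial at 3.5 cm and the proximal at 5.5 cm from the tip. The end of the same arm, up to 1.5 cm from the tip, was taken from another adult male (OB2) and from an adult female (OB9), and the sixth library came from a whole hatchling at 30 days post fertilization (dpf). Ribosomal RNA was removed, and no treatment is given beyond the ethanol anesthesia that all animals had. The 5 arm libraries thus came from 3 animals. With 1 library per condition there was no spread between replicates and no test, so a difference below is one between these libraries. Between the 3 sections, which share animal and sex, tissue and handling cannot be told apart. In the other comparisons animal, sex, tissue and handling cannot be told apart.

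Histone lysine methyltransferases transfer methyl groups from S-adenosylmethionine to particular lysines of the histone tails or of the nucleosome surface, mostly through a catalytic SET domain. The lysine decides what the mark is known for: methylated H3K4, H3K36 and H3K79 are found on active genes, methylated H3K9 on silent chromatin, and methylated H4K20 on compacted chromatin and in the cell cycle. Octopus arms hold muscle, skin, suckers and a large axial nerve cord, and their ends can regrow.

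Levels are given as coding TPM, a length-normalized abundance (TPM) recomputed over the coding transcripts alone. The summed estimated count was between 3161353 in the distal section and 9081923 in the hatchling, and non-coding RNAs took 4.51 to 11.7% of it. Their share of the TPM that the authors deposited was 61.6 to 63.5% in the tips, the distal section and the hatchling. In the medial and proximal sections that share was 39.8 and 47.3%, so coding TPM rescaled the libraries unequally. The median coding TPM of all coding transcripts was 5.80 and 6.59 in the male and female tips, 4.78 in the distal section, and 3.79 to 3.96 in the other 3 libraries, so that most transcripts stood higher in the tips on this scale. Each comparison is therefore read against the median log2 ratio of all coding transcripts. Intervals are exact 95% Poisson intervals of the estimated count, which cover counting error only, since molecules were not tagged and PCR copies count as reads. They do not cover the scaling between libraries. An order of libraries or an overlap of intervals given below without a named scale thus holds on coding TPM only. The summed level of 6 nerve cell markers (complexin, synaptotagmin-1, piccolo, myomodulin and the Shab potassium channel) was 795 coding TPM in the distal section and 276 to 409 in each other library, with no marker at 0. These markers differed: piccolo and the Shab channel were highest in the tips (59.4 and 56.8, and 52.4 and 42.0, against 24.2 and 26.7 in the distal section), and the other 4 transcripts were highest in the distal section. The 4 dividing cell markers summed to 24.0 in the medial section, 40.1 in the hatchling and between these in the others. They differed too: DNA primase (1.86 and 1.97) and flap endonuclease 1 (6.66 and 6.76) were lowest in the male and female tips. Both were highest in the hatchling, at 6.60 and 14.8. Condensin-2 subunit D3, the largest part of the sum in each arm library, was highest in the tips. The mitotic checkpoint kinase was highest in the hatchling, followed by the male tip, and lowest in the medial section. The part of either cell type in the results below was not tested.

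The members ranged from abundant to not detected. Of the 35, 20 (57.1%) had at least 1 coding TPM in every library, against 56.3% of all coding transcripts, 28 of the 33 main histone methylation factors (84.8%) and 34 of the 39 SETMAR transcripts (87.2%). In each library the median member lay below the median of both other lists, at 7.06 coding TPM in the male tip and 4.49 in the hatchling. A level of at least 10 coding TPM in every library was reached by 10 members (28.6%), against 21.1% of all coding transcripts. In the main factors and the SETMAR transcripts this share was 45.5% and 46.2%. Under 1 coding TPM in every library were 2 of the 35 members and 5043 of the 38556 coding transcripts. Members were long, with a median length of 4556 bases against 1059 for all coding transcripts. Summed over the 35, the level was 741 and 810.5 coding TPM in the male and female tips, 489.5, 344 and 399 in the distal, medial and proximal section, and 337 in the hatchling. H3K4 factors made up 34.9 to 47.2% of that sum in each library and were its largest class throughout. In the male tip this class summed to 335, with KMT2C at 127, KMT2C.1 at 73.4 and KMT2C.2 at 63.5. KMT2C and KMT2C.1 may be pieces of one gene, so the class sum and the sum over the 35 may count that gene more than once.

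**Figure D1:**
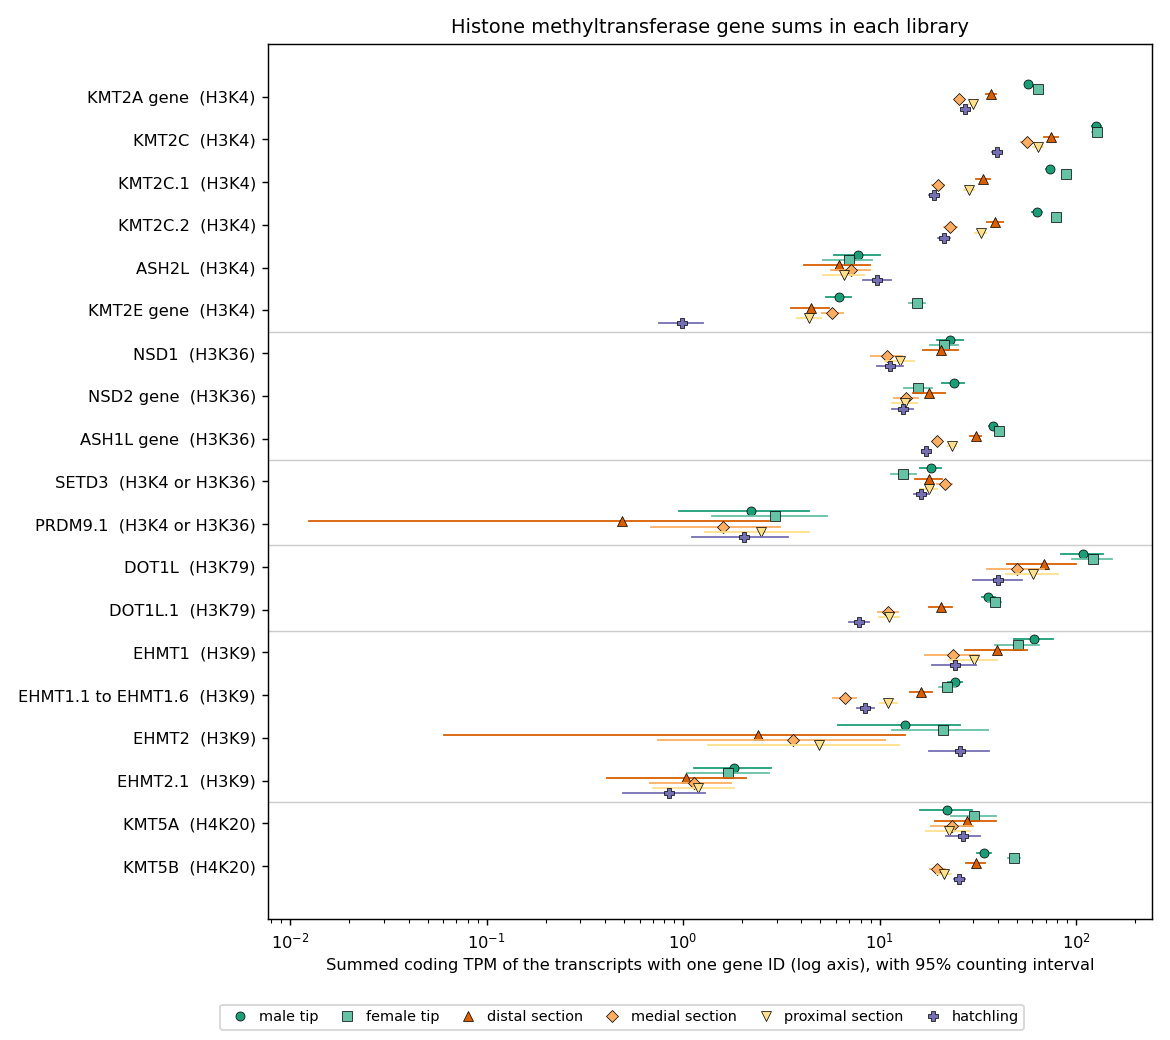
Summed coding TPM (log axis) of the members with one gene ID, for the 19 gene IDs with reads, in the 6 libraries; bars are 95% counting intervals. The 3 KMT2C gene models sit to the right in both tips, at 63.5 to 128 coding TPM, while KMT5A, SETD3 and ASH2L hold their libraries close together; the KMT2E sum leaves out a further transcript of that gene.

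Among the H3K4 factors, the KMT2C names were the most abundant. KMT2C (MLL3) is the catalytic subunit of a complex that methylates H3K4 at enhancers. The transcript KMT2C was at 127 and 128 coding TPM in the male and female tips, at 74.5, 56.0 and 64.2 in the distal, medial and proximal section, and at 39.8 in the hatchling. KMT2C.1 was at 73.4 and 89.1 in the male and female tips, at 33.6, 19.9 and 28.6 in the 3 sections from distal to proximal, and at 18.9 in the hatchling. For KMT2C.2 the tips had 63.5 and 79.4, the sections 38.8, 22.9 and 32.7 in the same order, and the hatchling 21.3. On coding TPM all 3 had the tips highest, the distal section next and the hatchling lowest. No counting interval of a tip overlapped one of a section or of the hatchling on that scale. In the deposited TPM the proximal section stood above the distal one in all 3, at 33.8 against 27.2 for KMT2C. For KMT2C.1 and KMT2C.2 the intervals of the hatchling and the medial section overlapped. KMT2C and KMT2C.1 have separate but consecutive IDs and were assigned the same RefSeq peptide, so they may be pieces of one gene; their ratio nevertheless ran from 1.43 in the female tip to 2.82 in the medial section.

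KMT2A (MLL1), the catalytic subunit of the complex that keeps Hox genes active in flies and mammals, was annotated with 2 transcripts that differ by 39 bases. Their sum was 57.1 and 63.8 coding TPM in the male and female tips, 36.9, 25.4 and 29.8 in the distal, medial and proximal section, and 27.2 in the hatchling. The shorter one, KMT2A, was at 44.0 and 44.9 in the tips, 17.5, 16.3 and 17.3 in the 3 sections and 13.8 in the hatchling. The longer one, KMT2A.1, did not follow it: it was at 13.1 in the male tip, 19.0 in the female tip, 19.4 in the distal section and 9.19 to 13.4 in the remaining libraries.

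ASH2L, a core subunit that MLL-type complexes share and that has no SET domain of its own, showed another order. It was at 7.73 and 6.95 coding TPM in the male and female tips, at 6.21, 7.13 and 6.62 in the distal, medial and proximal section, and at 9.74 in the hatchling, from 28 to 148 estimated counts. The hatchling was highest, but its interval (8.23 to 11.4) overlapped those of each arm library, and the 5 arm values lay within each other's intervals.

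KMT2E (MLL5), which binds methylated H3K4 and for which the list gives interaction rather than writing, was the H3K4 factor with the widest range. The members KMT2E and KMT2E.1 summed to 6.19 coding TPM in the male tip, 15.5 in the female tip, 4.47, 5.76 and 4.39 in the distal, medial and proximal section, and 0.986 in the hatchling. KMT2E.1 alone was at 3.81 and 11.0 in the tips, had less than 1 estimated count in the distal section, and was at 1.45, 1.49 and 0.614 in the medial section, the proximal section and the hatchling. Another, longer transcript of the gene, Ocbimv22024077m, gives it its ID but is not on the list. It was at 16.5 and 13.9 in the tips, had less than 1 count in the distal section, and was at 2.09 and 3.93 in the medial and proximal sections and 6.98 in the hatchling. With it, the KMT2E gene reached 22.7 and 29.4 in the tips, 4.47, 7.84 and 8.33 in the distal, medial and proximal section, and 7.96 in the hatchling. The low hatchling value of the 2 members was thus not shared by the gene as a whole: Ocbimv22024077m held 87.8% of its hatchling count and 27.0% of its medial count.

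Among the H3K36 factors, NSD1 and NSD2 write the dimethyl mark. NSD1 was at 22.8 and 21.4 coding TPM in the male and female tips and 20.5 in the distal section, and at 10.9, 12.7 and 11.3 in the medial section, the proximal section and the hatchling. On coding TPM the distal section here stood with the tips. The intervals of the 3 libraries at the arm end (lowest bound 16.6) did not reach those of the other 3 (highest bound 15.0). In the deposited TPM the distal section, at 7.51, lay closer to the medial and proximal sections, at 6.55 and 6.67. The 6 NSD2 transcripts summed to 23.8 in the male tip, 15.7 in the female tip, 17.9, 13.7 and 13.4 in the distal, medial and proximal section, and 13.1 in the hatchling. Only the male tip stood apart in that sum, overlapping the distal section alone.

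ASH1L, another H3K36 factor and a Trithorax group protein, was annotated with 4 transcripts of about equal length. Their sum was 37.7 and 40.6 coding TPM in the male and female tips, 30.9, 19.7 and 23.5 in the distal, medial and proximal section, and 17.2 in the hatchling. On coding TPM the order was the same as that of the KMT2C names, and the intervals of the 2 tips overlapped each other but no other library.

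SETD3, which methylates a histidine of actin and is listed for H3K4 and H3K36, was the only gene sum lower in the tips than in the inner 2 sections under every scaling tried. Its level was 18.2 and 13.2 coding TPM in the male and female tips, 17.9, 21.5 and 17.8 in the distal, medial and proximal section, and 16.3 in the hatchling. The medial section was highest and the female tip lowest, without overlap of these 2 intervals, and the intervals of the other 4 libraries overlapped each other. PRDM9, known in mammals for marking sites of meiotic recombination, gave almost no reads. The transcript PRDM9, of 183 bases, had 0 counts in all 6 libraries. A level of 3 counts would be 9.28 coding TPM in the hatchling and 30.4 in the distal section, and the upper interval bounds were 11.4 and 37.4, so low levels were not detectable. PRDM9.1 was at 2.22 and 2.94 in the male and female tips, 0.490, 1.59 and 2.49 in the distal, medial and proximal section, and 2.03 in the hatchling, from 1 to 14 counts, and its intervals all overlapped.

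DOT1L, the H3K79 methyltransferase, lacks a SET domain. DOT1L.1, the longer transcript, was at 35.8 and 38.5 coding TPM in the male and female tips, at 20.6, 11.0 and 11.2 in the distal, medial and proximal section, and at 7.82 in the hatchling. On coding TPM the tips, the distal section, the inner 2 sections and the hatchling formed 4 steps whose intervals did not overlap. In the deposited TPM the distal section, at 7.52, lay closer to the medial and proximal sections, at 6.65 and 5.92. The 321-base transcript DOT1L followed the same order at higher levels, with 108 and 122 in the tips, 68.4, 49.8 and 60.3 in the distal, medial and proximal section, and 40.2 in the hatchling. It rested on 26 to 71 counts, and a transcript this short has an effective length that depends strongly on the fragment length, so its level is less certain than its counting interval.

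The H3K9 factors EHMT1 (GLP) and EHMT2 (G9a) form a pair in mammals that writes the mono- and dimethyl marks. The 6 transcripts EHMT1.1 to EHMT1.6 share a gene ID and summed to 24.3 and 22.0 coding TPM in the male and female tips, 16.3, 6.66 and 11.1 in the distal, medial and proximal section, and 8.48 in the hatchling. On coding TPM the tips were highest, the distal section followed, and the medial section was lowest, with an interval that ended at 7.59. The separate 465-base transcript EHMT1, whose ID precedes that run and which was assigned the same RefSeq peptide as EHMT1.6, was at 61.2 and 50.5 in the tips, 39.7, 23.7 and 30.3 in the distal, medial and proximal section, and 24.2 in the hatchling. It kept 2.29 to 3.55 times the level of that gene in every library.

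EHMT2, a transcript of 334 bases, was at 13.5 and 21.1 coding TPM in the male and female tips, at 2.40, 3.61 and 4.93 in the distal, medial and proximal section, and at 25.8 in the hatchling. These levels came from 9, 14, 1, 3, 4 and 34 counts. The hatchling interval (17.9 to 36.1) overlapped those of both tips but not those of the 3 sections. EHMT2.1, with 3358 bases, was low throughout, at 1.81 and 1.70 in the male and female tips, 1.04, 1.14 and 1.19 in the distal, medial and proximal section, and 0.847 in the hatchling. It rested on 7 to 21 counts, and the hatchling interval (0.497 to 1.29) overlapped that of each arm library, so its order was not resolved at this depth.

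The H4K20 factors divided into an even and an uneven one. KMT5A, which writes the monomethyl mark in mitosis, was at 22.1 and 30.3 coding TPM in the male and female tips, 27.9, 23.5 and 22.5 in the distal, medial and proximal section, and 26.7 in the hatchling, with intervals that all overlapped. KMT5B, which adds further methyl groups, was at 34.2 and 48.6 in the tips, 30.9, 19.7 and 21.3 in the sections from distal to proximal, and 25.4 in the hatchling. On coding TPM its female tip stood above every other library and its inner 2 sections below. In the deposited TPM the hatchling was lowest, at 9.32, against 11.3, 11.9 and 11.2 in the distal, medial and proximal section. The ratio of KMT5B to KMT5A was 0.838 in the medial section and 1.54 in the male tip, and highest in the female tip.

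The arm tips were then compared with the medial and proximal sections of the other male. Of 33 members compared, 15 were at least 2-fold higher in the tips, where 27.3% of all coding transcripts were, and 0 were at least 2-fold lower, where 8.13% were. Among the 15, NSD2.5 and EHMT1.2 passed the minimum of 1 coding TPM through the tips alone. NSD2.5 was at 4.11 in the male and 0.353 in the female tip. EHMT1.2 was at 3.64 and 2.43 there and at 0.864 and 0.937 in the medial and proximal sections. The median log2 ratio, of coding TPM + 1, was 0.86 over members and 0.49 over all coding transcripts. Scaling moved both medians together: they were 0.54 and 0.11 with TMM factors and 0.44 and -0.01 with the deposited TPM, so that the members lay above all coding transcripts by 0.37, 0.43 and 0.45 on the 3 scales. The calls depended on it more, with 6 and 3 members 2-fold higher, where 15.5% and 9.48% of all coding transcripts were. The main histone methylation factors had a median of 0.39, with 7 of 33 at least 2-fold higher and 2 lower, and the SETMAR transcripts one of 1.14, with 22 of 38 higher and 0 lower. Among transcripts of at least 5000 bases, the 15 members compared had a median of 1.07 and all coding transcripts one of 0.55. Most of these members were forms of the ASH1L, KMT2A, KMT2E and EHMT1 genes and so are not separate genes.

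Among gene sums, KMT2C.1 had a log2 ratio of 1.72 and a pooled count ratio of 3.35 (95% counting interval 3.18 to 3.53). DOT1L.1 followed with 1.65 and a pooled ratio of 3.33 (3.02 to 3.68), and both were more than 1 log2 unit above the all-coding median. KMT2C.2 had a log2 ratio of 1.34, the gene of EHMT1.1 to EHMT1.6 one of 1.32, KMT2A 1.11, KMT2C 1.08 and KMT5B 0.96. The value of EHMT2 was 1.78, from 23 and 7 counts, with a pooled ratio of 4.06 (1.69 to 11.2). At the other end, SETD3 was at -0.31 with a pooled ratio of 0.803 (0.714 to 0.902). Of 18 gene sums that could be compared under each of 4 scalings, 13 were higher in the tips under all 4 and 1, SETD3, was lower under all 4. Over single transcripts, 19 of 29 members (65.5%) and 49.3% of all coding transcripts were higher under all 4, and 4 members (13.8%) and 32.1% of all coding transcripts were lower. The other 4 gene sums (the NSD2 gene, ASH2L, PRDM9.1 and KMT5A) changed sign with the scaling. For the counts of gene sums there is no share over the sums of all genes. Nor are these sums all separate genes. KMT2C and KMT2C.1 share a RefSeq peptide, as do EHMT1 and EHMT1.6, and other sums share a human name, so one gene may be counted more than once.

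**Figure D2:**
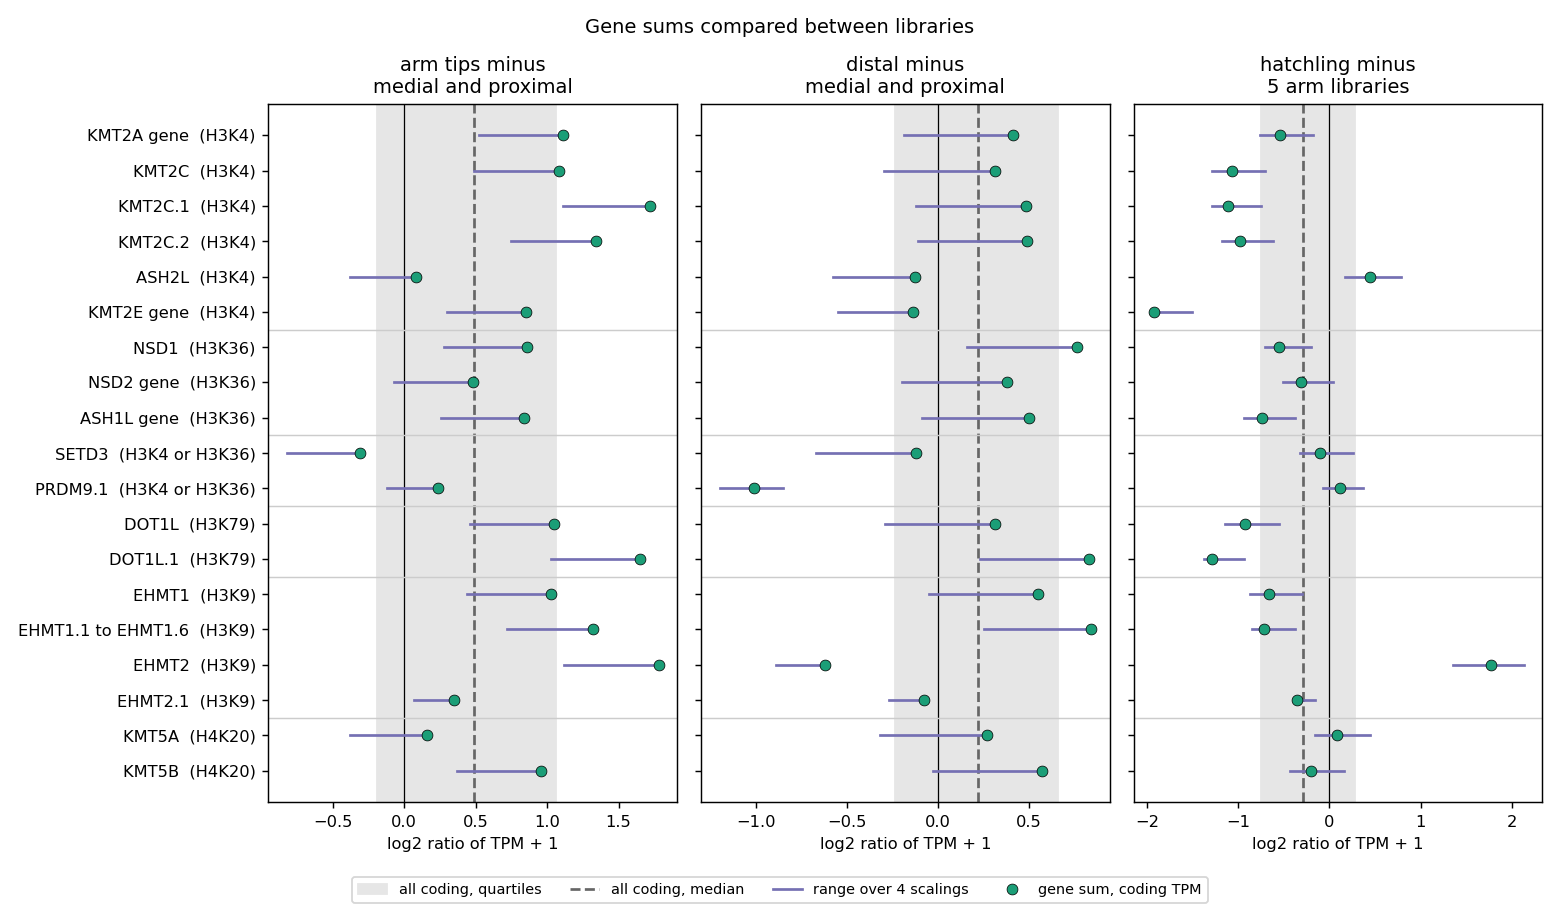
Log2 ratio of coding TPM + 1 for each gene sum in 3 comparisons (points), its range over 4 scalings (purple lines), and the median and quartiles of all coding transcripts (dashed line and grey band). EHMT2, KMT2C.1 and DOT1L.1 lie farthest to the right for the tips, beyond the band, and SETD3 lies left of it; for the distal section most lines cross 0.

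In the order of the libraries, a tip was highest of 6 in 20 of 33 members, where 55.5% of all coding transcripts had their highest value in a tip. Both tips stood above all 3 sections in 15 of 33 members, where 35.2% of all coding transcripts did. Under the deposited TPM these were 14 of 30 members (25.3% of all coding transcripts), and under TMM scaling 13 of 33 (25.5%). Among gene sums they were 14 of 19, 12 of 18 under the deposited TPM and 11 of 19 under TMM scaling, with no share over the sums of all genes to set beside them. Here too some sums may be pieces of one gene. Tips above the distal section, and the distal section above both inner sections, was the order of 9 members (19.6% of all coding transcripts): NSD1, KMT2A, KMT2C, KMT2C.1, KMT2C.2, DOT1L, DOT1L.1, EHMT1 and KMT5B. That order depended on the scaling, with 2 members of 30 under the deposited TPM (7.43%) and 3 of 33 under TMM (9.96%), both of which place the distal section lower relative to the inner sections.

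Within the arm of one male, the distal section was compared with the medial and proximal sections. Of 31 members compared, 4 were at least 2-fold higher (14.6% of all coding transcripts) and 5 lower (8.84%), and the medians were 0.27 over members and 0.22 over all coding transcripts. The 9 calls were NSD2.4, ASH1L.1, EHMT1.4 and EHMT1.6 on the higher side, and ASH1L, PRDM9.1, KMT2E.1, EHMT1.1 and EHMT1.3 on the lower side. All but PRDM9.1, the only transcript of its gene ID, were single forms of genes with several transcripts. EHMT1.6 passed the minimum of 1 coding TPM through the distal section alone. PRDM9.1, KMT2E.1, EHMT1.1 and EHMT1.3 passed it through the inner sections alone. With transcripts of one gene summed, only PRDM9.1, from 1 count in the distal section, remained 2-fold apart. Its pooled ratio was 0.241, with an interval (0.00581 to 1.51) that includes 1. NSD1, with a log2 ratio of 0.76, DOT1L.1, with 0.83, and the gene of EHMT1.1 to EHMT1.6, with 0.84, were higher in the distal section under all 4 scalings. Of the 18 gene sums, 5 were lower under all 4, namely SETD3 (-0.12), ASH2L (-0.13), the sum of the 2 KMT2E members (-0.14), EHMT2 (-0.62) and PRDM9.1 (-1.01). Another 10 gene sums, KMT2A, ASH1L and the KMT2C names among them, were higher on coding TPM and changed sign under the deposited TPM. Proximal and medial sections differed less, with 2 members at least 2-fold higher in the proximal section (6.63% of all coding transcripts) and 3 lower (6.93%). The medians there were 0.24 and 0.03, and the 5 calls were forms of the NSD2 and ASH1L genes. Of these, NSD2.1 and NSD2.2 passed the minimum through the medial section alone and NSD2.4 through the proximal section alone. The gene of EHMT1.1 to EHMT1.6 had the largest difference among gene sums, a log2 ratio of 0.66 in favour of the proximal section and a pooled ratio of 1.67 (1.41 to 1.98), followed by KMT2C.1 and KMT2C.2 at 0.50 each.

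The hatchling was compared with the 5 arm libraries, which shared no animal with it. Of 33 members compared, 5 were at least 2-fold lower in the hatchling (14.8% of all coding transcripts) and 1 was higher (9.26%). The median was -0.58 over members and -0.29 over all coding transcripts, and -0.33 and -0.80 over the main histone methylation factors and the SETMAR transcripts, of which 6 of 33 and 8 of 38 were at least 2-fold lower and 0 higher. TMM scaling moved the medians to -0.26 over members and 0.01 over all coding transcripts. The lower members were KMT2C, KMT2C.1, DOT1L.1, KMT2E and EHMT1.4, and the higher one was EHMT2. KMT2C and KMT2C.1 may be pieces of one gene, and KMT2E and EHMT1.4 were single forms. Both of these forms passed the minimum of 1 coding TPM through arm libraries alone. The gene of EHMT1.1 to EHMT1.6 had a log2 ratio of -0.72. With Ocbimv22024077m the KMT2E gene was at 7.96 coding TPM in the hatchling. In the distal, medial and proximal section it was at 4.47, 7.84 and 8.33, and in the tips at 22.7 and 29.4. Under TMM scaling KMT2C (-0.71), KMT2C.1 (-0.75) and DOT1L.1 (-0.94) were no longer 2-fold lower and NSD2.1 (1.12) was 2-fold higher, which left 2 members higher (14.6% of all coding transcripts) and 2 lower (8.71%). DOT1L.1 had a log2 ratio of -1.29 and a pooled ratio of 0.366 (0.322 to 0.414), and KMT2C.1 one of -1.11 with 0.417 (0.391 to 0.444). EHMT2 was at 1.77 with 2.82 (1.68 to 4.74), from 34 and 31 counts, and ASH2L at 0.44 with 1.40 (1.14 to 1.71). These 2 were the highest of 6 libraries in the hatchling, where 15.1% of all coding transcripts were, and were higher than the arm mean under all 4 scalings, while under the deposited TPM 1 member was highest there (7.66%). In 12 of 33 members the hatchling was the lowest of 6, where 25.9% of all coding transcripts were, against 16 of 30 (39.2%) under the deposited TPM and 8 of 33 (17.2%) under TMM scaling. Since the whole animal holds organs that the arm lacks, a lower level per cell and a smaller share of cells that express a gene cannot be told apart, here as in the arm.

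The female tip was compared with the male tip. At least 2-fold higher in the female was 1 of 32 members (11.7% of all coding transcripts), KMT2E.1, and 5 were lower (7.59%): NSD2.1, NSD2.5, ASH1L, ASH1L.2 and EHMT1.1. NSD2.1, NSD2.5 and EHMT1.1 passed the minimum of 1 coding TPM through the male tip alone. They were at 4.19, 4.11 and 1.41 there and at 0.687, 0.353 and 0 in the female tip, from 6, 3 and 0 counts. The medians were 0.05 over members and 0.14 over all coding transcripts. As gene sums, only the 2 KMT2E members were 2-fold apart, with a log2 ratio of 1.20 and a pooled ratio of 2.51 (2.12 to 3.00). With Ocbimv22024077m the KMT2E gene was at 29.4 in the female and 22.7 in the male tip. KMT5B had a log2 ratio of 0.50 with a pooled ratio of 1.42 (1.28 to 1.58), while NSD2 at -0.57 with 0.659 (0.534 to 0.811) and SETD3 at -0.43 with 0.729 (0.601 to 0.883) were on the male side.

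Several calls above were of single forms whose gene sum was not 2-fold apart. The division of each gene's count among its member transcripts was therefore examined. For KMT2E that count left out Ocbimv22024077m, which is not a member. Kallisto divides reads that match several forms among them, and only reads over the stretch in which forms differ tell them apart. The number of those reads is not in the files, so that Wilson intervals over all counts of a gene are too narrow for the shares that follow. Forms are described by their length differences alone. In each of the 5 genes with several members the lengths fall into pairs that differ by one fixed step: 9 bases in 3 pairs of EHMT1.1 to EHMT1.6, 168 bases in 3 pairs of NSD2, 54 and 9 bases in 2 pairs each of ASH1L, 39 bases in KMT2A and 111 bases in KMT2E.

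**Figure D3:**
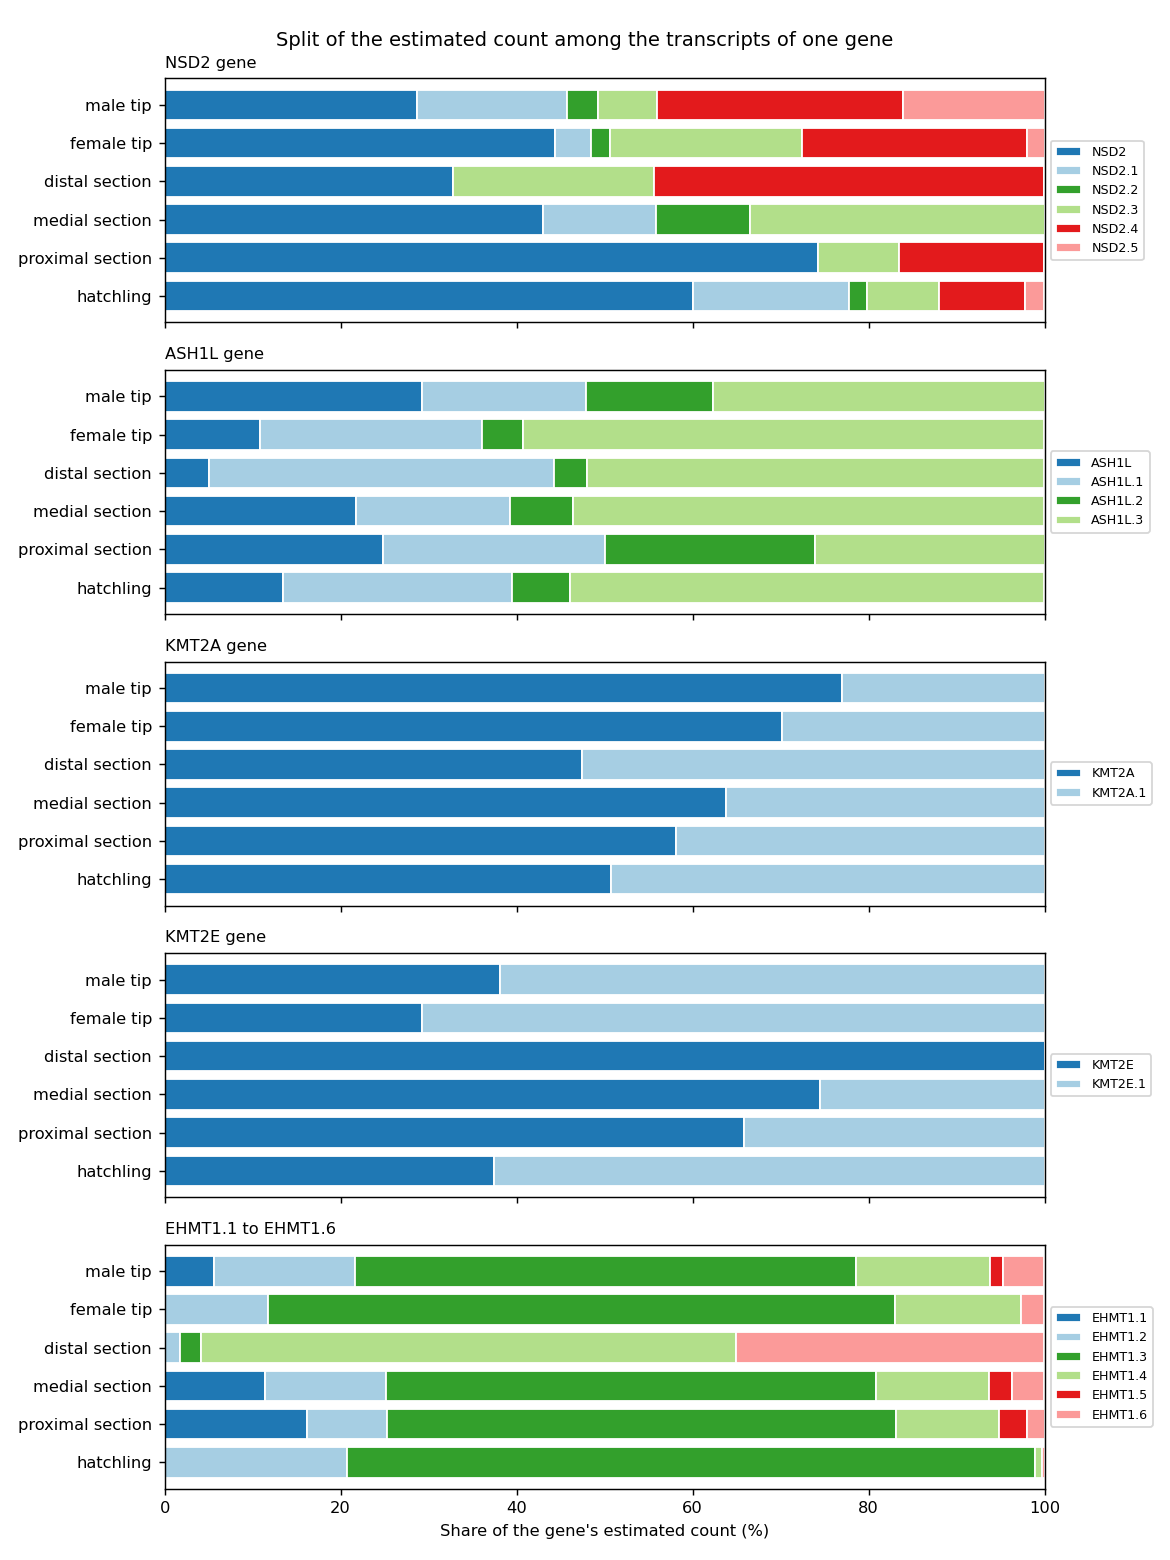
Share (%) of a gene's estimated count given to each of its member transcripts, in the 6 libraries, for the 5 genes with several members. For KMT2E the count is that of the members alone and leaves out a further transcript of that gene. In the distal section EHMT1.4 holds 60.8% of the EHMT1.1 to EHMT1.6 count and EHMT1.6 nearly all of the rest, where EHMT1.3 is the largest form in each other library.

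The EHMT1 gene gave the widest split. EHMT1.3 was at 14.0 and 15.8 coding TPM in the male and female tips, 0.408, 3.75 and 6.48 in the distal, medial and proximal section, and 6.74 in the hatchling. EHMT1.4, which is 9 bases longer, was at 3.77 and 3.17 in the tips, 10.2, 0.870 and 1.30 in the sections in that order, and 0.0706 in the hatchling. EHMT1.6, which is 9 bases longer than EHMT1.2, was at 1.07 and 0.549 in the tips, 5.43, 0.223 and 0.212 in the sections, and 0.0242 in the hatchling. The 2 longer forms were thus highest in the distal section, where the shorter EHMT1.3 was lowest.

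Together the 3 longer forms held 224 of 234 counts in the distal section, or 95.8% (Wilson interval 92.3 to 97.7%). Their share was 21.5 and 17.0% in the male and female tips (116 of 540 and 79 of 468 counts), and 19.1% and 16.9% in the medial and proximal sections. In the hatchling it was 1.13%, from 5 of 407 counts. The intervals of the 4 other arm libraries overlapped, and the distal section and the hatchling stood on either side of them. The distal split shared little with any other library: the mean distance to the other 5, on a scale where 0 is the same split and 100 no form in common, was 82.1, against 27.2 to 39.6 for the others.

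**Figure D4:**
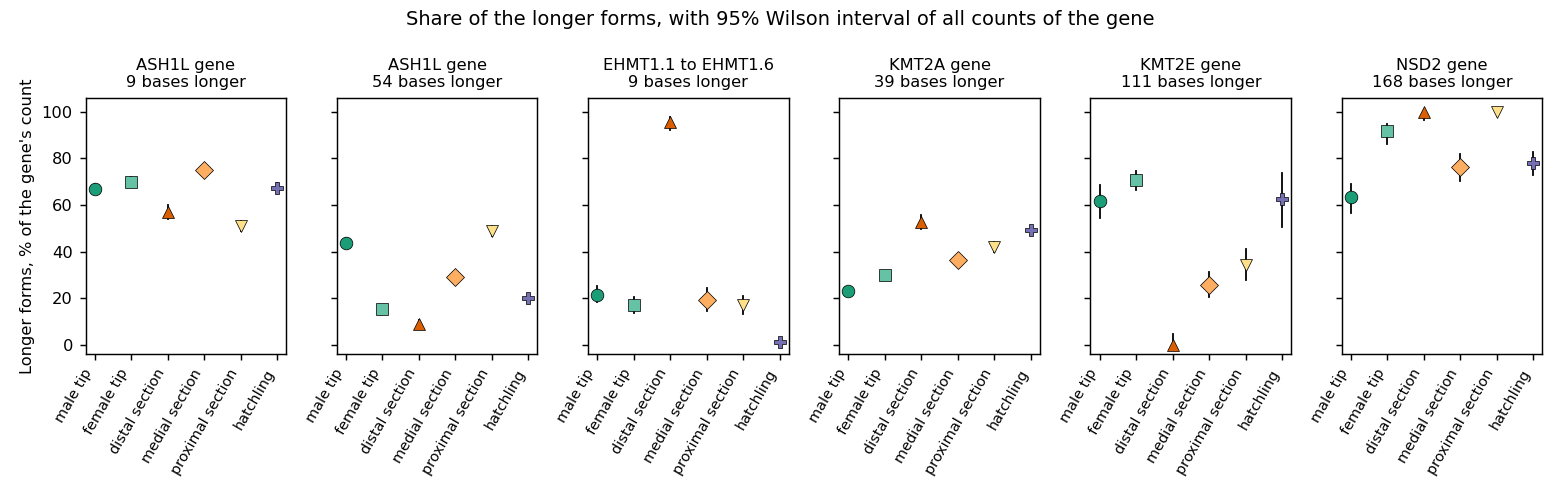
Share (%) of the estimated count held by the longer forms of a gene in the 6 libraries, for 6 length steps in 5 genes. The 95% Wilson intervals are of the summed counts of the gene's members. For KMT2E the share and its interval leave out a further transcript of that gene. The distal section is at 95.8% for the 9-base step of EHMT1.1 to EHMT1.6, the other arm libraries at 16.9 to 21.5% and the hatchling at 1.13%.

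Between the 2 KMT2E members too the distal section had the split farthest from the others (mean distance 51.0, against 27.1 to 34.0). All 82 counts of the 2 members were on KMT2E there, with less than 1 on KMT2E.1 and on Ocbimv22024077m. In the remaining genes another library was farthest: the medial section in NSD2 (40.7), the proximal section in ASH1L (29.1) and the male tip in KMT2A (18.9). In NSD2 the forms with the longer step held all 112 counts in the distal section and all 196 in the proximal section, 91.8% in the female tip, 76.5% in the medial section and 63.3% in the male tip, with the hatchling just above the medial section. The distal section also had the most of NSD2.4, which was at 8.18 coding TPM there, 6.59 and 4.12 in the male and female tips, 2.30 in the proximal section, 1.30 in the hatchling and 0 in the medial section. NSD2 rested on 112 to 275 counts per library.

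ASH1L and KMT2A had the deepest counts, 1007 to 3098 per library. The ASH1L forms with the 54-base step held 43.6 and 15.4% of the count in the male and female tips, 8.76, 28.9 and 48.7% in the distal, medial and proximal section, and 20.1% in the hatchling. Along the arm of one male the share was thus higher in each section farther from the tip, and the 2 tips, taken from the same part of the arm, lay far apart. For the 9-base step of ASH1L the share was between 50.9% in the proximal and 75.2% in the medial section. ASH1L itself, the form with both steps, was at 11.0 and 4.36 coding TPM in the male and female tips, 1.54, 4.26 and 5.81 in the sections from distal to proximal, and 2.32 in the hatchling. ASH1L.2, with the 54-base step alone, was at 5.44 and 1.86 in the tips, 1.16, 1.40 and 5.60 in the sections, and 1.12 in the hatchling. Both were low in the distal section and higher in the male than in the female tip. ASH1L.1, with neither step, was at 7.06 and 10.3 in the tips, 12.1, 3.47 and 5.92 in the sections, and 4.49 in the hatchling. ASH1L.3, with the 9-base step alone, was at 14.3 and 24.1 in the tips, 16.1, 10.5 and 6.14 in the sections, and 9.28 in the hatchling. These 2 had the female tip above the male tip, and ASH1L.1 was highest in the distal section. The longer KMT2A form held 23.0% and 29.8% of the count in the male and female tips, 52.6, 36.2 and 41.9% in the distal, medial and proximal section, and 49.3% in the hatchling. Both tips had the smaller shares there, and the distal section of the other male, collected next to that region, had the largest, with an interval (49.7 to 55.5%) that overlapped only that of the hatchling.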

How the data were processed

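The authors sequenced 6 ribosomal RNA-depleted libraries with paired-end reads of 150 bases, trimmed them with Trimmomatic 0.36 and, for the hatchling, removed poly-G tails, and quantified them with Kallisto, correcting for sequence bias. Deposited were estimated counts and, as computed by the authors from them, TPM for 40327 targets. TPM was recomputed here over the 38556 coding targets. Transcripts with at least 1 coding TPM in any library of either side were compared by the mean log2(TPM + 1), called at 2-fold. Pooled estimated counts, rounded, gave ratios with exact conditional intervals. Transcripts were summed by the gene ID in the study's annotation. TMM factors were computed with edgeR 4.0.16 (R 4.3.3). Python 3.11.15, numpy 2.4.6, pandas 2.3.3, scipy 1.17.1 and matplotlib 3.10.9 were used, and the comparison functions were tested on simulated data.

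No test was run, as each condition is 1 library. The members, comparison lists and markers were chosen with earlier results of these data known. Each gene sum, and each member at least 2-fold apart in a comparison with at least 5 coding TPM, was given by library. The remaining forms were given mainly through their gene sum. Of the 35 members, 13 matched a RefSeq gene (assembly ASM119413v2), whose coordinates belong to another build and were not used. Alternatives were the deposited TPM, TMM factors, removal of the 10 most abundant transcripts, centring on the all-coding median, pseudocount 0.1, a minimum of 5 TPM or none, gene sums, a 4-fold threshold, counting intervals and means over the 3 animals; leaving out single libraries was added after seeing the data.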

Additional observations from a re-analysis of the deposited data

How the results depend on the processing

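No paired analysis was possible because each condition is 1 library, so the conditions share 1 replicate number, which names no pairing, and a fit with a block has nothing left to estimate the spread from. For the tips against the medial and proximal sections, the 15 members 2-fold apart became 3 with the deposited TPM, 6 with TMM scaling, 6 after centring on the all-coding median (5 higher, 1 lower), 9 as gene sums and 0 at 4-fold. The median of 0.86 became 0.44, 0.54 and 0.37 under the first 3 of these. For the hatchling, the 6 became 13 with a pseudocount of 0.1, 11 with means over the 3 animals and 0 at 4-fold, and the median of -0.58 became -0.26 with TMM scaling. For the distal section, the 9 became 5 with the deposited TPM, 1 as gene sums and 4 at 4-fold, and the median of 0.27 turned to -0.20 (deposited TPM) and -0.06 (TMM). For the proximal section, the 5 became 1 at a minimum of 5 TPM, 0 as gene sums and 0 at 4-fold. Between the tips, the 6 became 3 at a minimum of 5 TPM, 1 as gene sums and 0 at 4-fold, and the median of 0.05 turned to -0.11 (TMM), -0.02 (10 most abundant transcripts removed) and -0.09 (centring). Under the deposited TPM the distal section had 3 members higher (4.42% of all coding transcripts) and 2 lower (12.3%). For the tips, the shares under the deposited TPM and TMM scaling stand with that comparison above. For the other settings no share over all coding transcripts is given, so these counts show only how the calls depend on the setting. The cause was not tested beyond what each setting changes by construction.

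Leaving out single libraries, an alternative chosen after seeing the data, gave 11 to 16 members 2-fold apart for the tips, with medians of 0.85 to 0.96. For the hatchling it gave 5 to 12 members, with medians of -0.69 to -0.47: 12 were reached without the medial section and 11 without the proximal section. For the distal section it gave 10 to 11 members, with medians of 0.17 to 0.23. These counts too have no share over all coding transcripts beside them. Depth limits PRDM9, PRDM9.1, EHMT2 and EHMT2.1, which had 0 to 34 counts in each library, and the split of reads among forms limits every single transcript of the 5 genes with several members.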
